A study of Homo sapiens with 12 samples.

Results

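Untreated HK-2 cells were the 3 control libraries of the series, 3 of its 12 samples, chosen by their labels as the group kept for 72 h in medium alone, at 0 ug/ml of 2,8-dihydroxyadenine. The remaining samples received that purine at 60, 120 or 240 ug/ml and are not used here. HK-2 is an established human line derived from proximal tubule epithelium of an adult kidney and immortalized with papillomavirus oncogenes, and the labels call its cell type proximal tubule epithelial cell. The cells grew in minimal essential medium with fetal bovine serum, sodium pyruvate and antibiotics. All 3 libraries therefore describe 1 line, without any fresh tubule, primary culture or second line beside it. The labels do not say whether each library is its own culture, so the SD between libraries may be technical. Messenger RNA was selected by its poly(A) tail, so RNAs that lack one are under-represented.

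The proximal tubule reclaims most of the filtered glucose, phosphate, amino acids and protein. It does so with apical transporters, the endocytic receptors megalin and cubilin and a brush border of peptidases, and it secretes organic anions taken up through its basolateral membrane. HNF4A is known to drive this program in the mature tubule, whereas PAX8 marks the whole renal epithelial lineage. Injured tubule cells are known to lose transporters, to gain KIM-1 (HAVCR1), osteopontin, keratins and vimentin, and to take on mesenchymal features. The papillomavirus protein E7 binds RB, which releases E2F factors and is known to raise p16.

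Each deposited value is a normalized signal per transcript, of the kind given by TPM divided by a size factor, and a gene's level is the sum of its transcripts. On that reading the values are already per length, so levels of different genes can be set side by side. The 3 libraries summed to totals of 1228979, 1200782 and 1143850.5. Read depth is unknown, so no counting interval could be given and a gene without signal is described as listed at 0. Values are given for libraries 1, 2 and 3 in that order, or as mean ± SD with n = 3. A gene was called present with a value of at least 1 in all 3 libraries. No test was made, because there is 1 group, and all counts are descriptions.

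Most protein-coding genes had a signal in unexposed HK-2 cells, and a small number of them held most of it. Of 19907 protein-coding genes, 12193 (61.2%) were present, 3721 (18.7%) were listed at 0 in all 3 libraries and 1431 (7.19%) had a mean of at least 100. Over all 57527 genes of every type, 14385 (25%) were present. The most common range was a mean of 10 to 100, with 6917 protein-coding genes (34.7%). The median of the means was 5.6 over all protein-coding genes and 19.3 over those present. The 139 genes with a mean of at least 1000 held 44.2, 42.5 and 41.8% of the library totals. Among genes of other types, 1439 of 14951 long noncoding RNA genes and 493 of 15172 pseudogenes were present.

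**Figure D1:**
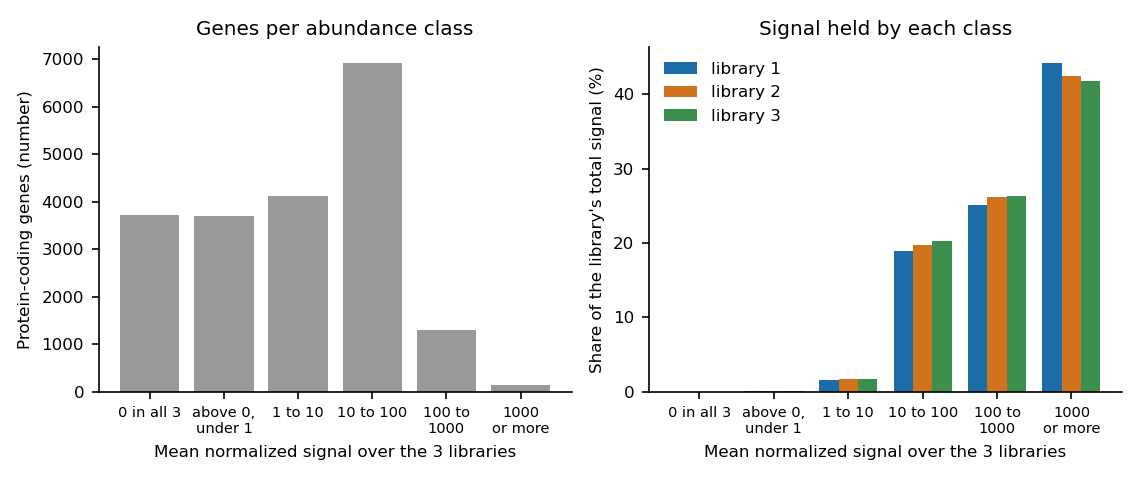
Left, the number of protein-coding genes (y axis) in 6 classes of mean normalized signal over the 3 untreated libraries (x axis). Right, the share of each library's total signal (y axis, percent) held by each class, with a bar per library. The class from 10 to 100 holds the most genes (6917), while the 139 genes at 1000 or more hold 44.2, 42.5 and 41.8% of the signal.

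Mitochondrial and ribosomal messages led the list. The 13 mitochondrially encoded mRNAs held 15.5, 12.7 and 15.3% of the total signal, and the 86 cytosolic ribosomal protein genes held 16.5, 17.3 and 14.4%. MT-ND4L, a subunit of respiratory complex I, had the highest mean at 29687 ± 3371, followed by the cytochrome oxidase subunits MT-CO1 at 29460 ± 2241, MT-CO3 and MT-CO2. MT-ND4L and MT-ND4 overlap, as do MT-ATP8 and MT-ATP6, so how their signal is split between them is uncertain. MT-ND3, MT-CYB, MT-ND2 and MT-ND1 were also among the 25 highest protein-coding genes. The ribosomal members of that group were RPL41, RPL10, RPS24, RPL39, RPS18 and RPL12, with means from 5303 to 7062. Among genes of other types, the mitochondrial 16S ribosomal RNA gene MT-RNR2 was highest at 18712 ± 1565. It was followed by the proline tRNA gene MT-TP (3659), the ribosomal pseudogenes RPL36AP37 and RPL23AP42, and MT-RNR1 (1154). Reads of such pseudogenes cannot be told apart with certainty from those of their parent genes.

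The other abundant messages encoded actin regulators, glycolytic and metal-binding proteins and 1 matrix protein. Thymosin beta 4 (TMSB4X) and thymosin beta 10 (TMSB10), which bind free actin, had means of 11451 ± 845 and 10552 ± 711. The glycolytic enzyme GAPDH stood at 8597, 7365 and 7007. FN1, which encodes the matrix glycoprotein fibronectin (ENSG00000115414.18, chromosome 2, 215360440 to 215436172, minus strand of GRCh38), had 8233, 7402 and 6319. FN1 thus came close to GAPDH in mean level (7318 ± 960) and was lowest in library 3. The remaining genes of this group were beta actin (ACTB, 6349 ± 221), the ferritin light chain FTL (5503 ± 512), the calcium-binding S100A6 (5381 ± 492) and the metallothionein MT2A (5189 ± 363). Metallothioneins are close copies of each other, so the split between them is uncertain. The elongation factor EEF1A1 summed to 4766 ± 772, but only 53.8 of this was in transcripts annotated as protein-coding. All 20 housekeeping genes of a fixed list were present, against 61.2% of all protein-coding genes. Their median was 1120.

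Most apical transporters of the proximal tubule were not present, although few were listed at 0. Of 31 apical transporter genes 10 (32.3%) were present, against 61.2% of all protein-coding genes, and none reached 100. The 6 listed at 0 are a share near the 18.7% of all protein-coding genes. The highest was ABCB1, the P-glycoprotein drug efflux pump, with 33.1, 30 and 41.4. It was followed by the phosphate carrier SLC20A2 (19.5 ± 2.06), the nucleotide and drug exporter ABCC4 (18.3 ± 0.569), and the urate-handling SLC17A3 (11.8 ± 0.651) and SLC17A1 (5.6 ± 0.985). SLC5A2, the SGLT2 glucose cotransporter of the early proximal tubule, had 4.2, 3.1 and 4.3. SLC34A1, the main apical phosphate cotransporter, stayed below 1 at 0.8, 0.6 and 0.5. The water channel AQP1 had 0.2, 0.4 and 0.3. These defining genes of the segment thus lay below 5 in every library. Listed at 0 in all libraries were SLC13A1, SLC13A2, SLC22A12, SLC5A8, SLC6A18 and SLC6A19, which carry sulfate, citrate, urate, monocarboxylates and neutral amino acids.

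On the basolateral side the beta and gamma subunits of the sodium pump were present, and the organic anion uptake carriers SLC22A6 and SLC22A8 were not. FXYD2, the pump's gamma subunit, had 218, 241 and 169. ATP1B1, the beta subunit, averaged 81.7 ± 6.72, so FXYD2 was 2.55 ± 0.335 times ATP1B1. The potassium channels KCNJ16 (44.7 ± 2.05) and KCNJ15 (31.9 ± 7.98) were present. So were SLC3A2, the heavy chain of amino acid exchangers (44.3 ± 2.92), the organic anion exporter ABCC3 (33.7 ± 4.82), the bicarbonate cotransporter SLC4A4 (20.3 ± 2.48) and the glucose carrier SLC2A2 (13.0 ± 0.513). SLC22A6 and SLC22A8, the organic anion transporters OAT1 and OAT3, were listed at 0 in every library. SLC13A3, a dicarboxylate carrier, had 0.3, 0.1 and 0.3, and the cation carrier SLC22A2 had 0.1, 0.1 and 0.2. In all, 12 of 20 basolateral genes (60%) were present, close to the 61.2% of all protein-coding genes.

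The 2 receptors that define proximal endocytosis had no or almost no signal, while the machinery that serves them did. LRP2, which encodes megalin (ENSG00000081479.13, chromosome 2, 169127109 to 169362685, minus strand), was listed at 0 in every library. An LRP2 transcript that GENCODE release 29 marks as main is not among the rows used here, so this rests on the gene's other transcripts. CUBN, which encodes cubilin, had 0.1, 0.3 and 0. The chaperone LRPAP1 had 98, 129.6 and 96.5, the folate receptor FOLR1 had 61.9, 62.2 and 41.6, and the cobalamin exporter LMBRD1 averaged 46.3 ± 2.34. The phosphatase OCRL (27.0 ± 0.929), the adaptor DAB2 (25.9 ± 1.96), the cubilin partner AMN (3.23 ± 1.03) and the chloride-proton exchanger CLCN5 (2.23 ± 0.0577) made up the 7 of 9 genes present. That share, 77.8%, stands against 61.2% of all protein-coding genes. Most of the LRPAP1 signal, and of that of LMBRD1, lay outside transcripts annotated as protein-coding, which averaged 6.9 and 11.1.

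Brush border enzymes and metabolic genes had a few members at moderate levels, and their medians were 0.8 and 0.833, against 5.6 for all protein-coding genes. GGT1, gamma-glutamyl transferase, had 181, 191 and 155, and the scaffold PDZK1 had 146, 152 and 126. GGT1 has close copies in the genome, so its level is uncertain. The peptidases ENPEP (57.8 ± 9.27) and DPP4 (35.0 ± 6.33), the scaffold NHERF1 (27.0 ± 2.15) and neprilysin (MME, 6.3 ± 1.11) followed. Aminopeptidase N (ANPEP), meprin alpha (MEP1A) and XPNPEP2 were listed at 0, and villin (VIL1) had 0.1, 0 and 0.3. Of the 21 brush border genes, 9 (42.9%) were present, against 61.2% of all protein-coding genes. The 4 at 0 are a share near the 18.7% of all protein-coding genes. Of 31 metabolic genes, 12 (38.7%) were present, led by glutathione peroxidase 3 (GPX3, 97.6 ± 4.14), adenylate kinase 4 (AK4, 89.8 ± 5.19) and the glucuronosyltransferase UGT2B7 (78.3 ± 6.93). Argininosuccinate synthase (ASS1, 62.5 ± 10.4), the inositol oxygenase MIOX (46.9 ± 9.9) and the vitamin D hydroxylase CYP24A1 (44.4 ± 7.21) came next. Gluconeogenesis had almost no signal, with G6PC1 listed at 0, PCK1 at 0, 0 and 0.2 and FBP1 at 0.2, 0.2 and 0.3. AGXT2, DAO and HAO2 were also listed at 0.

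**Figure D2:**
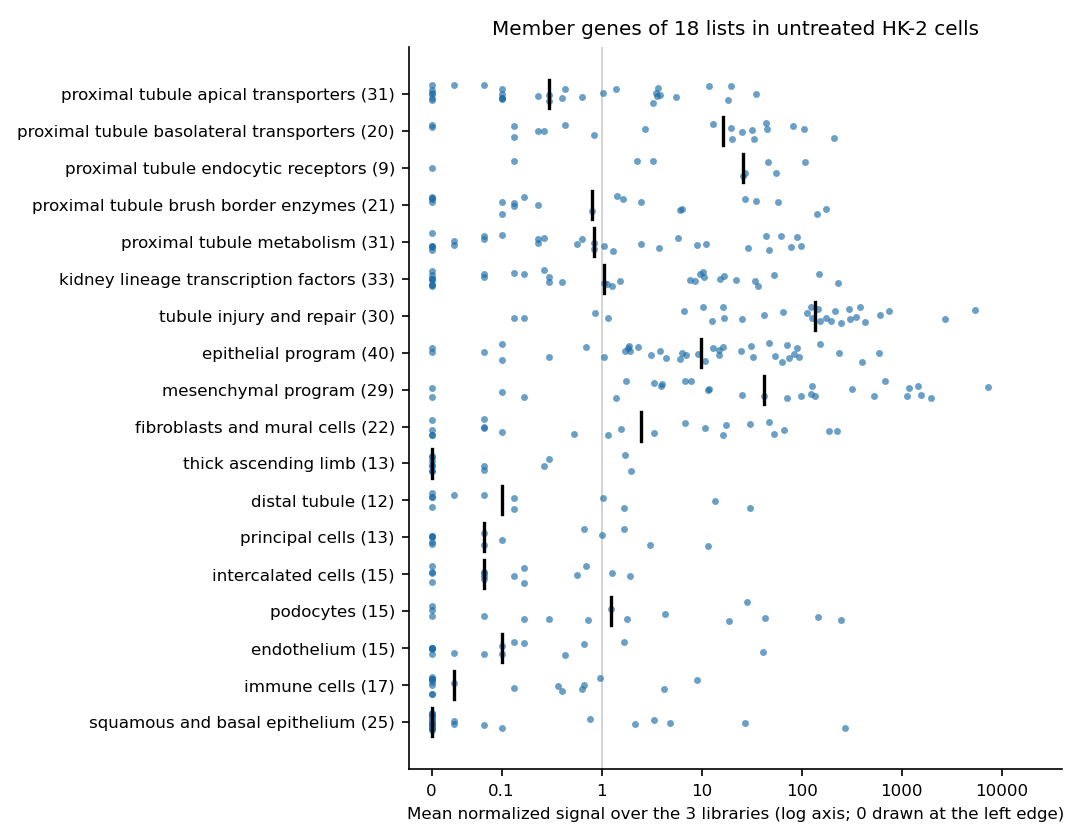
Every member gene of 18 lists as a point at its mean normalized signal over the 3 untreated libraries (x axis, log scale, with genes listed at 0 drawn at the left edge). Rows are lists with their number of members in brackets, black bars are list medians, and the grey line stands at 1. Tubule injury and mesenchymal genes have medians of 136 and 42, whereas the medians of apical transporters, thick ascending limb and squamous genes are 0.3, 0 and 0.

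A minority of the kidney lineage factors was present, with PAX8 among the highest and HNF4A, the factor of the mature proximal tubule, at 0. PAX8 (ENSG00000125618.16, chromosome 2, 113215997 to 113278950, minus strand) had 237, 222 and 232. HNF4A (ENSG00000101076.16, chromosome 20, 44355700 to 44434596, plus strand) was listed at 0 in every library. The 3 libraries gave the same picture for both genes. PAX2, a paired-box factor of the early kidney, had 0.6, 0 and 0.2, and WT1, which marks nephron progenitors and podocytes, was at 0. The homeodomain factors CUX1 (52.6 ± 4.81) and LHX1 (36.3 ± 2.33), the zinc finger factor SALL1 (34.1 ± 5.96) and MAF (22.0 ± 0.721) were the next highest. Of the 33 factors 14 (42.4%) were present, against 61.2% of all protein-coding genes, and their median was 1.07. EYA1, IRX1, IRX2, POU3F3, TFAP2B and TFEC were listed at 0, though the main EYA1 transcript is not among the rows used here. For PAX8, 33.5% of the summed signal lay in 1 retained-intron transcript, PAX8-209, and the protein-coding transcripts averaged 137.

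Genes that define other nephron segments and other kidney cell types had little signal. Their shares stand against 61.2% of all protein-coding genes present. For the thick ascending limb 2 of 13 genes (15.4%) were present, EGF and CLDN16, both below 3 in every library. UMOD was listed at 0 and SLC12A1 had 0.2, 0 and 0, although for both the main transcript of GENCODE release 29 is not among the rows used here. In the distal tubule 3 of 12 genes were present, led by the FGF23 coreceptor KL (30.5, 32.6 and 28.8). SLC12A3, the thiazide-sensitive cotransporter, had 0.4, 0 and 0. For principal cells 2 of 13 genes were present, the sodium channel subunit SCNN1A (11.7 ± 1.6) and HSD11B2 (3.03 ± 0.208), with the vasopressin-regulated water channel AQP2 at 0. For intercalated cells 1 of 15 was present, the proton pump subunit ATP6V1C2 (1.27 ± 0.208), with FOXI1 at 0. Most aquaporins were near 0, with 1 of 11 present (AQP11, 2.57 ± 0.231).

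The lists for podocytes and fibroblasts had shares close to the background of all protein-coding genes, of which 61.2% were present. Of 15 podocyte genes 8 (53.3%) were present, led by alpha-actinin 4 (ACTN4, 249 ± 13.4), KIRREL1 (145 ± 5.23) and the adaptor CD2AP (43.3 ± 7.16), whereas nephrin (NPHS1) was at 0. The endothelial list had 2 of 15 present (13.3%), EGFL7 (41.0 ± 7.85) and ESAM (1.67 ± 0.0577). PECAM1 had 0.2, 0 and 0.1, and VWF was at 0. The immune list had 2 of 17 present (11.8%), the receptor CSF1R (9.0 ± 0.361) and the integrin ITGAX (4.23 ± 0.569), and the pan-leukocyte gene PTPRC was at 0. Of 22 fibroblast and mural cell genes 12 (54.5%) were present, led by the proteoglycan lumican (LUM, 226 ± 31) and MCAM (188 ± 11). DCN, another small proteoglycan, had 64.7, 46 and 31.8. COL1A2, COL3A1, PDGFRA and POSTN were listed at 0, and ACTA2, smooth muscle actin, averaged 3.33 ± 0.709.

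Genes known to rise in injured or repairing tubules were nearly all present. Of 30 such genes 27 (90%) were present and 18 had a mean of at least 100, against 61.2% and 7.19% of all protein-coding genes. SPP1, osteopontin (ENSG00000118785.13, chromosome 4, 87975650 to 87983426, plus strand), had 2861, 3021 and 2240.5. HAVCR1, the injury marker KIM-1 (ENSG00000113249.12, chromosome 5, 157029413 to 157059119, minus strand), had 266, 248 and 227. Both were lowest in library 3. CD24, a surface marker of scattered tubule cells, averaged 748 ± 89, the insulin-like growth factor binding protein IGFBP7 603 ± 52.2, the protease inhibitor TIMP1 429 ± 57.2 and the metalloproteinase MMP7 382 ± 71.3. MMP7 varied between libraries, with 308, 388 and 450. The lower end of the list held the repair factor SOX9 (1.17 ± 0.115), NGAL (LCN2, 6.63 ± 1.55) and the adhesion receptor VCAM1 (10.3 ± 0.681). PROM1, the CD133 gene, had 0.3, 0.2 and 0.

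Epithelial genes were present in large part, but several of the genes that define a tight epithelium were low. Of 40 epithelial genes 32 (80%) were present, with a median of 9.93, against 61.2% and 5.6 for all protein-coding genes. The protease inhibitor SPINT2 had 612, 623 and 544, the kidney cadherin CDH6 had 422, 402 and 366, and the adhesion molecule EPCAM had 232, 243 and 233. The transcription factor ELF3 (152 ± 6.74), the tricellular junction receptor LSR (94.5 ± 2.23) and the laminin chain LAMA5 (90.2 ± 11) followed. CDH1, which encodes E-cadherin (ENSG00000039068.18, chromosome 16, 68737225 to 68835548, plus strand), had 1.3, 2.7 and 1.6. Occludin (OCLN) had 0.8, 0.9 and 1.5 and missed the threshold in 2 libraries, and the protease matriptase (ST14) had 0.3 in each. GRHL2, an activator of CDH1, stood at 0.1 in each, without its main transcript among the rows used here, while the splicing factors ESRP1 (3.1 ± 0.436) and ESRP2 (24.7 ± 0.551) were present. EHF and OVOL1 were listed at 0.

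**Figure D3:**
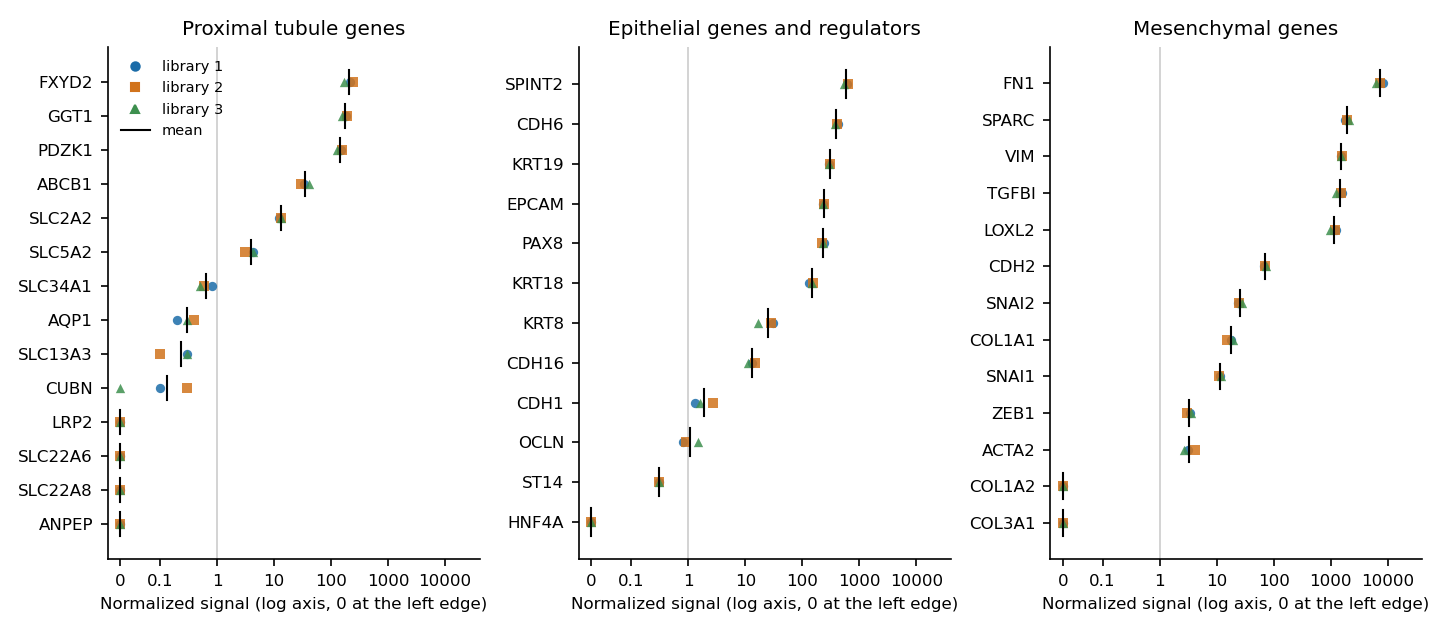
Normalized signal (x axis, log scale, with 0 drawn at the left edge) of proximal tubule genes, epithelial genes and regulators, and mesenchymal genes. Symbols are the 3 untreated libraries and black bars their mean. The libraries lie close together for each abundant gene, and LRP2, SLC22A6, SLC22A8, ANPEP, HNF4A, COL1A2 and COL3A1 are at 0 in all 3.

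Cadherins, claudins and keratins each came down to a few members. Over all protein-coding genes 61.2% were present and 18.7% were listed at 0. Of 23 cadherin genes 5 were present, namely CDH6, CDH2 (71.5 ± 2.86), CDH24 (21.3 ± 1.4), CDH16 (12.9 ± 1.95) and CDH1 (1.87 ± 0.737). N-cadherin (CDH2) was 52.9, 26.4 and 46.6 times E-cadherin in the 3 libraries, and CDH6 was 5.56 ± 0.612 times CDH2. The first ratio has a wide range because CDH1 is near the lower end of the scale. Without fresh tubule measured here, it cannot show whether HK-2 cells depart from their tissue of origin in these cadherins. Of 24 claudins 8 were present. CLDN1, a sealing claudin, had 204, 198 and 219, and CLDN4 had 154, 146 and 144. CLDN2, which forms the cation pore of the proximal tubule, had 170, 168 and 99.3, so library 3 stood below the others. CLDN11 averaged 115 ± 9.59, and CLDN10 and CLDN19 were at 0. Of 55 keratins 7 were present and 31 were listed at 0. KRT19 (299 ± 6.91) exceeded KRT18 (145 ± 10.8), and KRT80 (78.4 ± 5.52) and KRT7 (41.8 ± 10.2) followed. KRT8, the usual partner of KRT18, summed to 25.1 ± 7.26, of which transcripts annotated as protein-coding held 7.03. The sum may be a lower bound because newer transcripts of a gene were not assigned to it. The KRT8 transcript that GENCODE release 29 marks as main was among the rows used.

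Mesenchymal genes were among the most abundant of the cell. Of 29 genes 25 (86.2%) were present and 12 had a mean of at least 100, against 61.2% and 7.19% of all protein-coding genes. Their median was 42, against 5.6 for all protein-coding genes. Vimentin (VIM, ENSG00000026025.15, chromosome 10, 17228259 to 17237593, plus strand) had 1512.5, 1597 and 1517.5, which was 11.4, 10.3 and 10.3 times KRT18. SPARC, a matricellular protein, had 1821, 1947 and 2119, TGFBI had 1592, 1519 and 1245, and the lysyl oxidase LOXL2 had 1262, 1175 and 958. Tropomyosin 1 (TPM1) averaged 1173 ± 3.09 and the matricellular CCN1 676 ± 11.1. The transcription factors of the mesenchymal program were far lower. SNAI2 averaged 25.4 ± 2.14, ZEB2 11.8 ± 1.0, SNAI1 11.5 ± 0.321, TWIST1 3.9 ± 0.529 and ZEB1 3.33 ± 0.306, and PRRX1 and TWIST2 were listed at 0. Of 44 collagen genes 18 (40.9%) were present, below the 61.2% of all protein-coding genes. The basement membrane chains COL4A2 (758 ± 31.6) and COL4A1 (628 ± 31.1) were highest, followed by COL6A2 (154 ± 11.1), COL8A1 (83.7 ± 9.66), COL6A1 (66.5 ± 4.08) and COL7A1 (51.6 ± 7.85). COL1A1 had 18.1, 15.4 and 19.1.

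Fibronectin exists in forms with or without an extra domain called EDA, which cells in culture and in healing tissue are known to include. Since FN1 was the most abundant matrix gene, the EDA exon is shown here (GENCODE release 29 exon, GRCh38, chr2:215380811-215381080, minus strand, within the coding part of FN1), with the first and last 10 bases, where it is spliced, in capitals.
FN1 EDA exon: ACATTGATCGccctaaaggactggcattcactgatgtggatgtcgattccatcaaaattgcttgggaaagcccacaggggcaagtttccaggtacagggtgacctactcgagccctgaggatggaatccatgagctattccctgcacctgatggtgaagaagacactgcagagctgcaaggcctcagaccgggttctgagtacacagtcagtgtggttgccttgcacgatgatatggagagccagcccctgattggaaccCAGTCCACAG
Among transcripts that span this position, those with the exon (6 transcripts) held 35.0, 33.1 and 36.4% of the signal, against 6 transcripts that skip it. For the EDB exon the share was 28.7, 29.5 and 30%. The most abundant FN1 transcript was FN1-213 with 28.2 ± 1.38% of the gene. A retained-intron transcript, FN1-215, held 15.2 ± 2.02%, and without such transcripts FN1 averaged 5444. The same applied more strongly to SPARC, where the retained-intron transcript SPARC-202 held 51.6 ± 0.858% and protein-coding transcripts averaged 867. VIM-201, by contrast, held 98.5 ± 0.162% of VIM, and CDH2-201 nearly all of CDH2. These shares depend on how reads were divided among overlapping transcripts, a step that the labels do not describe.

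Regulators of RB, which papillomavirus E7 binds, and of the G1 phase were present without exception. All 25 genes of the list were present, and 4 had a mean of at least 100, against 61.2% and 7.19% of all protein-coding genes. CDKN2A (ENSG00000147889.17, chromosome 9, 21967753 to 21995301, minus strand), which encodes the inhibitors p16 and ARF, had 322, 358 and 341. CDK4, the kinase that p16 inhibits, had 383, 400 and 375. MYC averaged 172 ± 6.65 and CDK2 113 ± 4.26. CDKN1A, the p21 inhibitor, had 74.4, 75.3 and 85.0, so CDKN2A was 4.36 ± 0.371 times CDKN1A. Cyclin D1 (CCND1), the usual partner of CDK4, was low at 6.7, 5.8 and 4.4, and the other D cyclins CCND3 and CCND2 averaged 53.7 ± 2.97 and 9.27 ± 2.67. RB1 itself averaged 30.1 ± 4.47, E2F1 28.1 ± 3.76 and E2F4 61.9 ± 0.907.

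CDKN2A makes its 2 proteins from different first exons that are read in different frames in the shared second exon. Their coding parts are shown because the gene total alone does not say which protein it stands for (GENCODE release 29, GRCh38, minus strand, chr9:21974678-21974827 for p16 and chr9:21994139-21994331 for ARF), with the start codon in capitals.
CDKN2A exon 1 alpha, coding part: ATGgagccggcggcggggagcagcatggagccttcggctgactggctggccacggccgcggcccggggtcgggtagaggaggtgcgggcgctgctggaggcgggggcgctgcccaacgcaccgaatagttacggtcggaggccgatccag
CDKN2A exon 1 beta, coding part: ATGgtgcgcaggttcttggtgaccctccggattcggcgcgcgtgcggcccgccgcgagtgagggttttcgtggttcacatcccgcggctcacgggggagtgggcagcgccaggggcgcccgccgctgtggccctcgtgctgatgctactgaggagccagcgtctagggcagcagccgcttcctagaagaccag
Transcripts with exon 1 alpha had 147, 159.5 and 138, and those with exon 1 beta had 149, 177 and 176. Both first exons were therefore in use, with exon 1 alpha at 49.6, 47.5 and 44.0% of the pair. The most abundant single transcript was CDKN2A-201 with 39.0 ± 2.52% of the gene. This split was looked at after the gene's level had been seen.

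Genes of telomere proteins were present, whereas the telomerase genes themselves were at or near 0. Among stress and apoptosis genes, BAX, which promotes apoptosis, averaged 254 ± 8.78, the stress cytokine GDF15 98.0 ± 11.2, cyclin G1 (CCNG1) 73.8 ± 5.36 and the death receptor TNFRSF10B 59.3 ± 3.39. TERT, the catalytic subunit of telomerase (ENSG00000164362.19, chromosome 5, 1253147 to 1295069, minus strand), was listed at 0 in all 3 libraries. TERC, its RNA template, had 0.5, 0 and 0, but it lacks a poly(A) tail and is measured poorly here. Against 61.2% of all protein-coding genes, the other 14 of the 16 telomerase and telomere genes were present. Among them the RNA-binding partners NOP10 (325 ± 7.39), NHP2 (217 ± 16.4), GAR1 (73.0 ± 1.8) and dyskerin (DKC1, 68.8 ± 0.551) were highest, and they also serve ribosomal RNA modification.

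Genes of DNA replication and mitosis were present in every library, at levels that differed between libraries. All 38 S phase genes and all 36 mitosis genes were present, against 61.2% of all protein-coding genes. PCNA, the sliding clamp, had 333, 408 and 437, and RRM2, a ribonucleotide reductase subunit, had 53.1, 74.9 and 95.4. Library 3 held the highest value for 32 of the 38 S phase genes and library 1 the lowest for 36. The S phase genes summed to 2427, 2792 and 2994. Among mitosis genes library 3 was highest for 32 of 36, and the sums were 3041, 3172 and 3480. Over all 8348 protein-coding genes with a mean of at least 10, library 3 was highest for 30.2% and library 1 lowest for 31.7%. CKS2 (430 ± 15), UBE2C (276 ± 31.9), CKS1B (263 ± 9.28), BUB3 (235 ± 8.43), PTTG1 (157 ± 10.3) and CDC20 (155 ± 9.33) were the most abundant mitosis genes, and MKI67, the Ki-67 gene, averaged 33.4 ± 6.52.

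**Figure D4:**
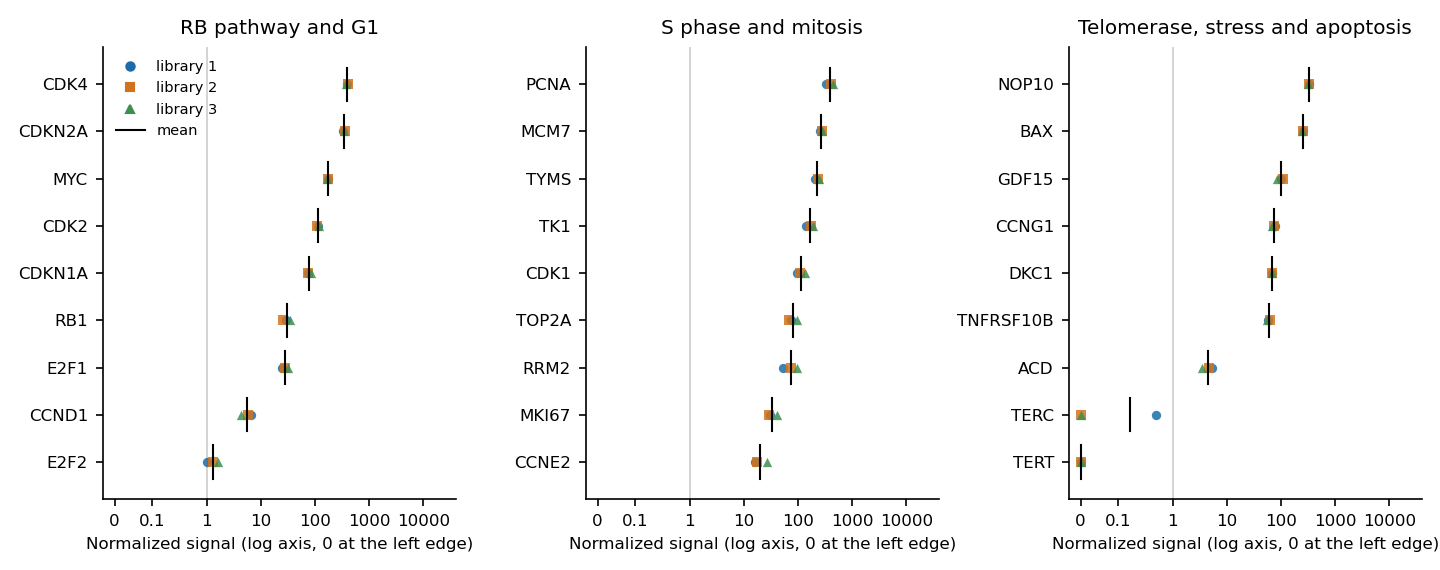
Normalized signal (x axis, log scale, with 0 drawn at the left edge) of RB pathway and G1 genes, S phase and mitosis genes, and genes of telomerase, stress and apoptosis. Symbols are the 3 untreated libraries and black bars their mean. CDK4 and CDKN2A are the highest of their panel, RRM2 is spread from 53.1 to 95.4, and TERT is at 0 in all 3 libraries.

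Programs of other lineages were largely missing, with exceptions that are named here. Over all protein-coding genes 61.2% were present and 18.7% were listed at 0. Of 25 squamous and basal genes 5 (20%) were present, led by S100A2 (271 ± 9.98) and the 14-3-3 protein SFN (27.4 ± 4.07), and KRT5, KRT14 and DSG3 were at 0. TP63, the basal cell factor, had 0, 0.1 and 0.1. Of 19 pluripotency and germline genes 1 was present, POU5F1 (2.8 ± 0.624), which has close pseudogene copies, and 13 were at 0. Of 15 hepatocyte genes 3 were present, with SERPINA1, alpha-1-antitrypsin, at 264, 280 and 229, and albumin (ALB) had 0.7, 0 and 0.2. Among 12 neuronal genes 6 (50%) were present, not far below the share of all protein-coding genes. They were led by the tubulin TUBB3 (319 ± 25.9), and STMN2, GAP43, ELAVL3 and ELAVL4 were at 0. Of 10 erythroid genes 1 was present, HBA1 (1.5 ± 0.173), with HBB at 0. HOX genes were common, with 30 of 39 (76.9%) present, against 61.2% of all protein-coding genes. HOXA9 had 155, 166 and 149.5, followed by HOXA10 (50.6 ± 0.757), HOXB9 (46.8 ± 0.866), HOXA5 (31.6 ± 1.84), HOXA7 (31.2 ± 0.902) and HOXB7 (31.1 ± 1.35). HOXA13, HOXB1 and HOXC12 were listed at 0, though the main transcripts of HOXA13 and HOXB1 are not among the rows used here.

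The cells also carried messages for many secreted factors. Of 47 such genes 41 (87.2%) were present, and 12 had a mean of at least 100, against 61.2% and 7.19% of all protein-coding genes. After SPP1 and SPARC the highest of these 47 were IGFBP3 (648 ± 54.1), IGFBP7, the cytokine IL32 (576 ± 24.8) and TIMP1. The chemokine CXCL8 had 173, 177 and 233, and the cytokine IL6 had 65.3, 47.7 and 53.1. CCL2, which attracts monocytes, had 7.1, 9.7 and 21.2, so library 3 stood above the others. CSF3, CXCL6 and HGF were at 0, though the main HGF transcript is not among the rows used here. Of 8 enzymes of purine salvage and 2,8-dihydroxyadenine formation, 6 (75%) were present, against 61.2% of all protein-coding genes. That purine accumulates where adenine phosphoribosyltransferase (APRT) is lacking. APRT had 125, 132 and 117. HPRT1, which salvages hypoxanthine and guanine, had 100, 110.4 and 107, and the phosphorylase PNP averaged 77.0 ± 3.31. Xanthine dehydrogenase (XDH), which oxidizes adenine to 2,8-dihydroxyadenine, had 0.8, 0.6 and 0.7, and the related oxidase AOX1 had 0.8, 1.3 and 1.6, so neither met the rule for presence. MTAP, ADK and ADA averaged 26.4 ± 2.08, 23.8 ± 1.22 and 15.5 ± 0.896.

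Pyruvate kinase was almost entirely of the M2 form, which proliferating cells use, rather than the M1 form of muscle and brain. The 2 exons are mutually exclusive and of equal length, and both are shown because the choice between them is what the shares below measure (GENCODE release 29, GRCh38, minus strand, chr15:72203022-72203188 for M1 and chr15:72202454-72202620 for M2). The 62 of 167 positions at which the exons differ are in capitals.
PKM M1 exon: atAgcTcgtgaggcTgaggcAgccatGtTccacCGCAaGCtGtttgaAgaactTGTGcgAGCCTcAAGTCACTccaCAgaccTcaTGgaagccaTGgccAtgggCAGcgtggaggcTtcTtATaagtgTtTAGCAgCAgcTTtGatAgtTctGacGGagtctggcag
PKM M2 exon: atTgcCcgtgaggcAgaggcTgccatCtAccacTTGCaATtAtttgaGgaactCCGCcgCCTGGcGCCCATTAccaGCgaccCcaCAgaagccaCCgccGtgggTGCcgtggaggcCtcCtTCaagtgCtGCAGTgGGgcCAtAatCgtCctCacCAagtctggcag
Transcripts with the M2 exon had 1302, 1272 and 1277, and those with the M1 exon had 9.9, 7.3 and 8.7. The M2 share was thus 99.2, 99.4 and 99.3% in the 3 libraries. PKM-202 alone held 91.1 ± 0.133% of the gene. Among other genes examined by transcript, TPM1-206 held 65.0 ± 1.49% of TPM1, CAV1-201 53.6 ± 3.95% of CAV1, CD44-201 33.7 ± 4.02% of CD44 and KRT18-201 95.2 ± 1.24% of KRT18. Over the whole total, retained-intron transcripts held 4.42, 4.31 and 4.44%.

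Promoter letters varied with the level of the gene in these cells. For 15302 of 19897 protein-coding symbols (76.9%) a RefSeq promoter of 300 bases was matched, from 250 before to 50 after the first listed start (GRCh38.p14). The median number of CpG dinucleotides was 5 in genes listed at 0, 10 in genes with a mean below 1 and 25 to 27 in the classes above, against 22 over all. Promoters with fewer than 10 CpG made up 67.0% of genes at 0 and 3.92% of genes at 1000 or more, against 26.3% over all. The motif TATAAA on the gene's strand, 40 to 21 bases before the start, was found in 9.30% of genes at 0 and in 1.06% of genes with a mean of 10 to 100. In genes at 1000 or more it was found in 4.90%, against 3.62% over all promoters, but that class held only 5 such promoters among 102. On the other strand the share was 1.32, 0.261 and 2.94% in the same 3 classes. These are descriptions of letters in fixed windows, and other starts of a gene were not searched. Some genes in the class at 0 lack a main transcript among the rows used here.

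**Figure D5:**
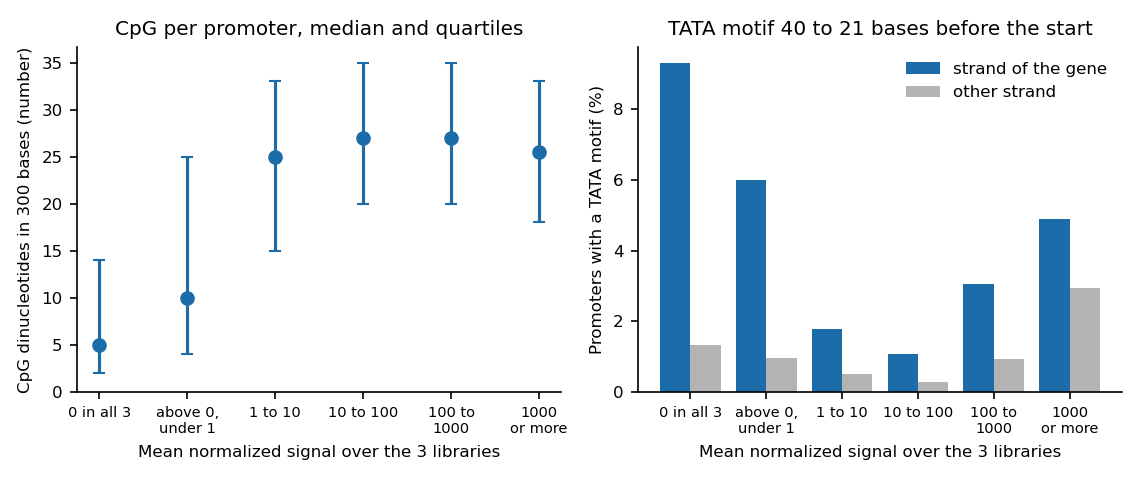
Left, CpG dinucleotides in the 300-base promoter (y axis), as median (point) and quartiles (bars), for 6 classes of mean normalized signal in untreated HK-2 cells (x axis). Right, the share of promoters (y axis, percent) with the TATA motif on the gene's strand and on the other strand. The median is 5 for genes at 0 and 25 to 27 from a mean of 1 upward, and the motif share is 9.30% at 0 and 1.06% from 10 to 100.

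Promoters of 2 abundant genes and 2 genes listed at 0 illustrate this range and its exceptions (RefSeq, GRCh38.p14; FN1 at chr2:215436019-215436318, minus strand; SPP1 at chr4:87975464-87975763, plus strand; SLC22A6 at chr11:62984918-62985217, minus strand; LRP2 at chr2:169362485-169362784, minus strand). Each CG is in capitals.
FN1: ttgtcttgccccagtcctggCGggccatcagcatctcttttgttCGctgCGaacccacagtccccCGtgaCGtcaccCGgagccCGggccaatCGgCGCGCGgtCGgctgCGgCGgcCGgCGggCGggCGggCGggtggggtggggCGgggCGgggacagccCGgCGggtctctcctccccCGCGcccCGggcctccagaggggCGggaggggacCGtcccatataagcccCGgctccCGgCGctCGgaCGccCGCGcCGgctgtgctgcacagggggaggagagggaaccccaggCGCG
SPP1: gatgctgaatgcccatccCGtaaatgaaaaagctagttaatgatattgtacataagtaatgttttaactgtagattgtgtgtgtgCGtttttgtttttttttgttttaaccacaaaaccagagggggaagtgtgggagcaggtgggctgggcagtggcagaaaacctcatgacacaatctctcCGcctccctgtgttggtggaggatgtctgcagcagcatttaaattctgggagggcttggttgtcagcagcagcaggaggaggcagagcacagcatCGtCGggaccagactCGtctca
SLC22A6: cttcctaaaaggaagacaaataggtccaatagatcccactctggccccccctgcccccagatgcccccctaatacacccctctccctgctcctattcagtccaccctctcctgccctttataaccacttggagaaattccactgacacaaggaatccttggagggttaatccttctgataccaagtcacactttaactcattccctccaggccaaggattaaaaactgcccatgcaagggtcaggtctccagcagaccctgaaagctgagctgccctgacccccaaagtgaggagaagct
LRP2: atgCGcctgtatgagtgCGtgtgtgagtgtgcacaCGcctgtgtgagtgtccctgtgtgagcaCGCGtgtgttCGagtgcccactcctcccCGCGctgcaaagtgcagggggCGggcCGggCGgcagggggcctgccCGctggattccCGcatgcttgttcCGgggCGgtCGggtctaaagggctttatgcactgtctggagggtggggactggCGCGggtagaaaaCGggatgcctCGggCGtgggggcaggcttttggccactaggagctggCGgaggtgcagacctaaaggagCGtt
FN1 had 38 CpG dinucleotides and a mean level of 7318, and SPP1 had 6 at a mean level of 2707. SLC22A6 had 0 and LRP2 had 23, although both genes were listed at 0. For LRP2 a main transcript is not among the rows used here, so its level is less certain. None of the 4 held TATAAA in the window searched. Among the gene groups, keratin promoters had a median of 2 CpG and TATAAA in 44.1% of 34 matched, and S phase promoters a median of 30 and TATAAA in 0%.

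The 3 libraries were alike for most genes. Across 15517 genes with a mean of at least 1, which are not independent replicates, log2(value + 1) correlated between pairs of libraries with r of 0.984, 0.983 and 0.983. Between 92.8 and 93.7% of these genes agreed within 1.5-fold in each pair. Among 8348 protein-coding genes with a mean of at least 10, the median coefficient of variation was 6.58%, and 27 genes (0.323%) exceeded 30%. Library 3 stood apart most often, above both others by 1.2-fold for 265 genes and below both for 402. The corresponding numbers were 103 and 147 for library 1, and 144 and 155 for library 2. Among genes with a mean of at least 50, genes with a high coefficient of variation were the ribosomal protein gene RPS9 (35.4%), RRM2 (28.4%), CLDN2 (27.6%) and IFI27L2 (27.1%). RPS9 had 179, 285 and 147. Among the lowest values were those of RNF10, at 105.5 in each library, MITD1, at 56.3 in each, CLPTM1L and TPM1.

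Some gene sums are less certain than their SD conveys. The 64860 transcripts that could not be assigned to a gene held 5.84, 5.95 and 5.62% of the totals, and 74 of them had a mean of at least 100. A gene whose main transcript is among them is understated. Lamin A (LMNA, 28.5) and tropomyosin 2 (TPM2, 0.167) each lack, among the rows used here, at least 1 transcript marked as main. For LMNA, the transcript LMNA-206 was among the rows and held 78.7 ± 2.97% of the gene. In the other direction, protein-coding transcripts held under 70% of the sum in 1867 of 8344 genes (22.4%) with a mean of at least 10, counted with 1 gene kept per symbol.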

How the data were processed

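RNA was measured in HK-2 cells, and the 3 untreated libraries were used here. Per the labels' protocols, RNA was extracted with TRI Reagent, enriched with oligo(dT) beads, reverse transcribed with random primers after fragmentation, strand-marked with dUTP and sequenced paired-end on DNBSEQ. The authors deposited a normalized signal for 267165 Ensembl transcripts, with 1 decimal. Its unit is not named, and the reading as TPM divided by a size factor rests on library totals near 1000000. The build is GRCh38.p14, per the submitters' processing notes. The aligner, counting tool and strand setting were not given in the sources used here.

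Transcripts were matched without version to GENCODE release 29, which assigned 202305 (75.7%) of them to 57527 genes, and values were summed per gene with pandas 2.3.3 and numpy 2.4.6 in Python 3.11.15. Current gene symbols were taken from a reference table. Present means at least 1 in all 3 libraries. Where a main transcript is said to be missing, at least 1 that GENCODE release 29 marks as principal was not among the deposited rows. The scripts were checked on simulated data. Groups came from the sample titles. There was no test between groups, and the values keep no read depth, so precision is given only as the SD of 3 libraries.

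The genes and the 31 lists and 6 families were chosen with earlier results of these data known. Named were the 25 protein-coding and 5 other genes of highest mean, every member of short lists, in longer lists up to 6 highest members, up to 6 at 0 and the defining markers, the 5 genes each of highest and lowest coefficient of variation, and main transcripts. The CDKN2A and FN1 exon shares, IL6 and the genes of the closing observations were picked after their values were seen. One marker of the thick ascending limb, BSND, is not analysed here, and some genes that the rule names are not reported. Alternatives were other thresholds, equal totals, the most abundant transcript, leaving out each library, other pseudocounts, and protein-coding transcripts alone, the last added after the data had been seen.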

Additional observations from a re-analysis of the deposited data

How the results depend on the processing

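Of 382 alternative values over 47 results, 350 stayed within the margin and 32 moved. The margin was 1.5-fold for counts of genes and 1 SD between libraries, or between pairs of libraries for the correlation, for other values. The widest change of the count of all genes present was to 10518, against 14385, at a threshold of 5. With at least 5 in all libraries as the threshold, the genes present numbered 4 of apical transporters, 0 each of thick ascending limb, intercalated, erythroid, pluripotency and aquaporin genes, 1 each of principal cell, endothelial and immune genes, 5 of podocyte and 2 of squamous genes. With at least 0.5 they numbered 5 of principal cell, 2 of intercalated, 4 of immune and 2 of aquaporin genes. With a mean of at least 1 they numbered 4 of principal and 2 of intercalated cell genes. With totals of 1000000 0 intercalated genes were present. By the most abundant transcript the counts were 0 for the thick ascending limb, 0 for intercalated cells and 1 for endothelium, and CDH2 was 56.9 times CDH1. With protein-coding transcripts only they were 1 for the thick ascending limb and 1 for endothelium, and the CDH2 ratio was 56.9. Leaving out 1 library gave 1 to 2 intercalated genes, with 2 when replicate 3 was left out.

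The 100 most abundant genes held 42.7% of the assigned signal, against 40.3% of the total. Genes below 0.5 in all libraries numbered 6170, against 3721 at 0. The mean correlation was 0.957 with a pseudocount of 0.1, 0.991 with no filter and 0.99 for a mean of at least 5, against 0.983. With a mean of at least 50, 2 genes had a coefficient of variation above 30%, against 27. The cause of these shifts was not tested beyond the change of setting itself. No paired analysis was possible because only the untreated group was described and no groups were compared. Unknown depth limits what a value near 0 can show.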

Other observations

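Beyond the genes above, the abundant messages of nuclear genes that encode neither ribosomal nor mitochondrial proteins included several carriers of redox, stress and secretory functions. These were read from the ranked genes after their values were seen. The tumor protein TPT1 had 3236, 3103 and 2470, with library 3 below the others. Galectin-1 (LGALS1), a secreted lectin, had 2958, 2950 and 2850.5, and the ferritin heavy chain FTH1 averaged 2669 ± 169. Prosaposin (PSAP), a lysosomal precursor, averaged 2393 ± 165 and the cytokine MIF 2170 ± 108. The aldose reductase AKR1B1, which makes sorbitol, averaged 1756 ± 57.6, the small heat shock protein HSPB1 1701 ± 79.7, the glutathione transferase GSTP1 1594 ± 61.2 and the peroxiredoxin PRDX1 1366 ± 68.3. Among glycolytic enzymes ENO1 had 2516, 2422 and 2367, TPI1 averaged 1435 ± 45.5 and PKM 1402 ± 14.9. Each of these genes differed by less than 1.5-fold between its highest and lowest library.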
